A study of Mus musculus with 4 samples.

Results

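The circadian clock genes were followed here in poly-A RNA-seq libraries of mouse joints. The members were the 10 genes Bmal1, Clock, Per1, Per2, Per3, Cry1, Cry2, Nr1d1, Nr1d2 and Dbp, taken by name from the 55036 Ensembl gene identifiers listed in the hip or the knee counts. There were 4 libraries, 1 per group, in 2 pairs. The hip control was Cbfβf/f cartilage, labelled as given no treatment and carrying no Cre. Its partner was Cbfβf/f;Col2α1-CreERT cartilage, from mice injected with tamoxifen (TMX) for 5 days from 2 weeks of age. By these labels the hip pair differed in Cre and in injection as well as in the intended deletion. The study's methods instead list Cbfβf/f mice among those injected with TMX or oil, and its results text calls the hip controls WT. The age of the hip mice is given as 6 weeks in one place and 2 months in another. Both knee libraries came from Cbfβf/f;Aggrecan-CreERT mice at 12 weeks of age, injected for 5 days with oil (the control) or TMX, from an age given as 8 weeks in one place and 6 weeks in another. The TMX dose was 75 mg/kg per day. Col2α1 and Aggrecan are promoters of chondrocyte genes, so the Cre lines address chondrocytes, while bulk RNA holds every cell of the dissected tissue. By the labels, the floxed Cbfb allele was shared by all 4 groups.

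The clock is a transcriptional loop that most cells carry. BMAL1 and CLOCK bind E-box DNA as a pair and switch on the Per and Cry genes, the REV-ERB receptor genes Nr1d1 and Nr1d2, and Dbp. PER and CRY proteins then inhibit the pair, and the REV-ERB receptors repress Bmal1 while ROR receptors activate it. In peripheral tissues, Bmal1 mRNA therefore peaks at nearly the opposite time of day from Nr1d1 and Dbp mRNA, with Per mRNA following Dbp. Chondrocytes, muscle and bone are among the tissues known to have such rhythms. The mice were kept under a regular cycle of light and dark, but the time of day at which the joints were collected is not given in the sources used here. With 1 library per group, time of collection and condition cannot be told apart, and no p-value can be given.

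The libraries held between 34264456 and 38473120 counts on genes. A floor of 3 counts was 0.0780 to 0.0876 counts-per-million units (CPM), far under every value of the members. Cbfb, the targeted gene, stood at 66.2 and 85.2 CPM in the hip control and the hip TMX-injected library, with a log2 ratio of 0.37 (0.29 to 0.45), and at 111 and 120 CPM in the knee, with a log2 ratio of -0.08. After correction for the trend of ratios with transcript length and GC both signs turned, to -0.21 (-0.28 to -0.13) in the hip and 0.09 (0.02 to 0.15) in the knee. The direction of Cbfb thus depended on that correction, and gene counts do not show whether exons were lost. The tissue label was cartilage, but a list of 16 chondrocyte markers took 0.0260% and 0.0106% of the counts in the hip control and TMX-injected libraries, against 23.7% and 23.3% for 26 skeletal muscle markers. In the knee the chondrocyte markers took 0.641% and 0.315%, and the muscle markers 1.74% and 3.67%. Of the other lists, the 11 osteoblast markers took 0.0942% and 0.0273% of hip counts and 1.43% and 0.798% of knee counts, and 9 erythroid markers 0.589% and 0.222% of hip and 9.99% and 4.94% of knee counts. The 10 adipocyte markers took 0.0831% and 0.271% of hip counts and 0.0877% and 0.149% of knee counts. Neutrophil markers held 0.0450% and 0.0498% of hip and 3.42% and 2.80% of knee counts, and macrophage markers 0.0156% and 0.00715% of hip and 0.0642% and 0.0607% of knee counts. No marker was at 0 in any library. Since the tissue is measured in bulk, fewer cells of a type and less RNA per cell cannot be told apart.

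Promoters of 6 members are shown as examples, those of Bmal1, Nr1d1 and Dbp for ratios of opposite sign in the joints and those of Per1, Per3 and Cry1 for their motif matches. Each window spans 250 bases before and 50 after an annotated start, read 5′ to 3′ on the strand of the gene, from RefSeq annotation on GRCm38.p6. Capitals mark clock motifs found by letter search on both strands: the E-box CACGTG, the E-prime box AACGTG, the D-box TTATGTAA to which DBP binds, and the core TAGGTCA of the element that ROR and REV-ERB receptors share.
Bmal1, chr7:113207261-113207560, plus strand: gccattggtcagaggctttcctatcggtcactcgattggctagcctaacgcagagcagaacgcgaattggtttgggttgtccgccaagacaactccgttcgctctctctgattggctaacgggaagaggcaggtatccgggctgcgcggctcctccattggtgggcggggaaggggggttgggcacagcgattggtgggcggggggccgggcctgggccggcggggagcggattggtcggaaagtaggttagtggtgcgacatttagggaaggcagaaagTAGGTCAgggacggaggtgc
Per1, chr11:69098699-69098998, plus strand: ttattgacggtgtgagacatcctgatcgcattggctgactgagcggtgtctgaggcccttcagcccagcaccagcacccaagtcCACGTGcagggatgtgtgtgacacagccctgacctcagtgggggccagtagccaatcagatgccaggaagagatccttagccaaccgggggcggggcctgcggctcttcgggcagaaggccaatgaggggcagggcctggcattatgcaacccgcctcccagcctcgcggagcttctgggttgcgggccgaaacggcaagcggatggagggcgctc
Per3, chr4:151044616-151044915, minus strand: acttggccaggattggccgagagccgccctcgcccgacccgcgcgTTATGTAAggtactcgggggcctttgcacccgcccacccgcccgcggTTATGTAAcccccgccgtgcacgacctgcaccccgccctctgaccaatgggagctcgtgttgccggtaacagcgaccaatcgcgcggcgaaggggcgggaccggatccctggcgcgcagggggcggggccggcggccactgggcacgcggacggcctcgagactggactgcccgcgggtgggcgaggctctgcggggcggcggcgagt
Cry1, chr10:85185005-85185304, minus strand: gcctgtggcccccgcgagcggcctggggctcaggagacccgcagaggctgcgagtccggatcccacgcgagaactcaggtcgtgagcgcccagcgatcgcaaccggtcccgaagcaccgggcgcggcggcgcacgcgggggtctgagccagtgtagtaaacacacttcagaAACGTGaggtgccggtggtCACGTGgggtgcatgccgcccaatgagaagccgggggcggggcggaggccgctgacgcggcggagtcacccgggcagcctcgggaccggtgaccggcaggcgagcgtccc
Nr1d1, chr11:98775328-98775627, minus strand: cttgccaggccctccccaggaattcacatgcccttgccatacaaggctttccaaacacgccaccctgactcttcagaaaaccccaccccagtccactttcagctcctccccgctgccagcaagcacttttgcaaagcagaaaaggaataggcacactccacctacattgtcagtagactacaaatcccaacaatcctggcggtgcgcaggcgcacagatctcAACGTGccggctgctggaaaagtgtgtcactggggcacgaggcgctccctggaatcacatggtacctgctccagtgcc
Dbp, chr7:45704997-45705296, plus strand: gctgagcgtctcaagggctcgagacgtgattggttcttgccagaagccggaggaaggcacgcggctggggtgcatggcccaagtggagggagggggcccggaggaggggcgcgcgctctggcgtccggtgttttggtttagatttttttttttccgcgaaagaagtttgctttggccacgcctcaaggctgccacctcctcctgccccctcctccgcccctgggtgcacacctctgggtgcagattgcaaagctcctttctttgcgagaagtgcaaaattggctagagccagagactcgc
A RefSeq window was found for every member but Per2, 9 in all, in 13 windows over alternative starts, and 6 of these windows held at least 1 match. Among 32851 windows of all genes, 7.15% held the E-box, 4.68% the E-prime box, 0.938% the D-box and 2.61% the ROR element core. The cAMP response element TGACGTCA, in 1.79% of all windows, was in none of the members' windows. In Per1 an E-box began 166 bases before 1 of its starts, and the window of the other start held no motif searched. The Per3 window had 2 D-boxes, beginning 205 and 158 bases before its start. The Nr1d1 window had an E-prime box 28 bases before its start, and Bmal1 a ROR element core 30 bases after one of its starts. The Cry1 window held an E-box 60 and an E-prime box 79 bases before the start, and that of Cry2 an E-prime box 166 bases before it. No motif searched was in the windows of Dbp, Clock or Nr1d2. These are matches of letters, not sites shown to be bound.

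In the hip pair, 6 of the 10 clock genes rose and 1 fell in the TMX-injected library. A gene counts as having risen or fallen where at least 10 counts were found over the pair, the log2 ratio was at least 1 in size and its 95% counting interval excluded 0. By that rule 19.6% of the 19856 hip genes tested rose and 16.9% fell. In the knee pair 1 clock gene rose and 1 fell, where 8.96% of 21131 genes rose and 6.92% fell. All 10 members passed the count filter in both joints, with 159 counts or more in each library. Counting intervals excluded 0 for 10 members in the hip, where 71.2% of all genes did so, and for 9 in the knee, where 61.6% did. The members' median log2 ratio was 1.21 in the hip and 0.53 in the knee, beside -0.02 and 0.01 for all genes. The intervals given after ratios are Clopper-Pearson intervals that cover counting error only, not differences between animals. The hip and knee counts list different numbers of identifiers, 50686 and 54838, and were scaled apart, so levels set side by side across joints are a description only. As these counts carry no molecular identifiers, even the counting error is a lower limit.

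**Figure D1:**
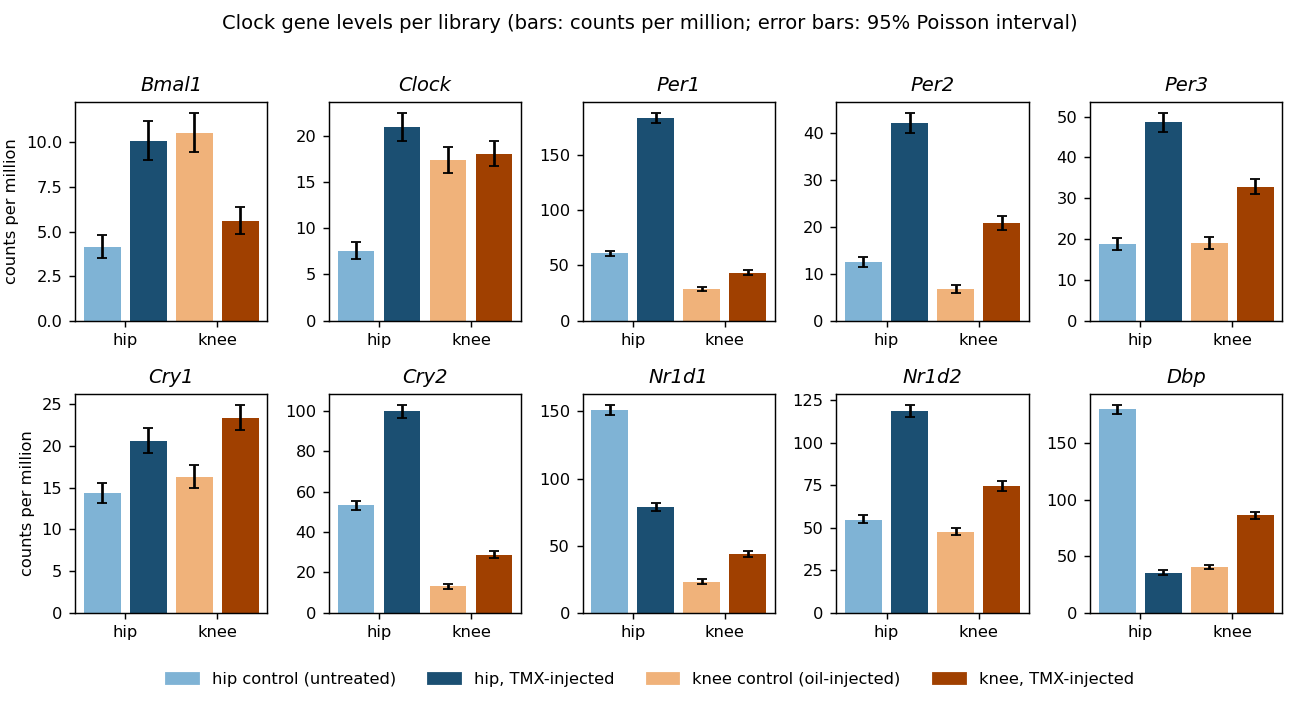
Level of each clock gene in each library, in CPM (linear axis from 0, own scale per gene), with error bars for the 95% Poisson counting interval. Dbp and Nr1d1 are tallest in the hip control at 180.1 and 151 CPM, Bmal1 is lowest there at 4.13 CPM, and Per2 is higher in the TMX-injected library of each joint.

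Bmal1, the activator whose loss stops the clock, moved in opposite directions in the joints. It stood at 4.13 CPM in the hip control, 10.1 CPM in the hip TMX-injected library, 10.5 CPM in the knee control and 5.57 CPM in the knee TMX-injected library. The hip control and the knee TMX-injected library were thus the low ones, and the counting intervals of the libraries of each pair did not overlap. The gene rose in the hip with a log2 ratio of 1.29 (1.02 to 1.57) and fell in the knee with a log2 ratio of -1.10 (-1.36 to -0.86). With scaling by library size alone the knee value was -0.92, which no longer met the rule for a fall.

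Clock encodes the partner of BMAL1 and is known for a flatter daily profile. Its levels were 7.54 and 20.9 CPM in the hip control and TMX-injected libraries, and 17.4 and 18.02 CPM in those of the knee. The hip control was the low library, and the knee libraries had overlapping intervals. Clock rose in the hip with a log2 ratio of 1.48 (1.28 to 1.68), but the value was 0.22 after correction for the trend of ratios with the length and the GC content of transcripts, the length-GC correction from here on. In the knee the log2 ratio was -0.13 (-0.29 to 0.03), and it turned to 0.05 with scaling by library size alone.

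Dbp, a PAR bZIP transcription factor and one of the most strongly rhythmic outputs of the clock, had the largest difference among the members. It was at 180.1 CPM in the hip control and 35.5 CPM in the hip TMX-injected library, and at 40.5 and 86.4 CPM in the corresponding knee libraries. The hip control held the highest level and the hip TMX-injected library the lowest, with the knee TMX-injected library above its control. Dbp fell in the hip with a log2 ratio of -2.33 (-2.42 to -2.25), a 5.04-fold difference, and 7.26% of all hip genes lay as far down or further. With the length-GC correction the ratio was -1.60. In the knee the log2 ratio was 0.91 (0.82 to 0.998), under the size required for a call, although it passed at 1.09 with scaling by library size alone and at 1.03 with the length-GC correction.

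Nr1d1 encodes REV-ERBα, a heme-binding receptor that represses Bmal1. It was at 151 CPM in the hip control, 78.6 CPM in its partner, 23.3 CPM in the knee control and 44.0 CPM in the knee TMX-injected library. The order within each pair was that of Dbp. Its log2 ratio was -0.93 (-1.0004 to -0.87) in the hip and 0.73 (0.61 to 0.86) in the knee, and neither reached the size for a call. In the hip it was -1.19, past the call, with upper quartile scaling and -0.37 with the length-GC correction. Annotated exons of Thra on the opposite strand cover 52.3% of the exon bases of Nr1d1. Whether counting used strand is not stated, so reads over those bases may have gone to the wrong gene or been left out. Thra itself had log2 ratios of -0.23 in the hip and 0.33 in the knee, or 0.02 (-0.04 to 0.07) and 0.13 with the length-GC correction.

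Nr1d2, the gene of the related receptor REV-ERBβ, did not follow Nr1d1 in the hip. It was at 54.9 CPM in the hip control, 118.9 CPM in the hip TMX-injected library, 47.8 CPM in the knee control and 74.6 CPM in the knee TMX-injected library. The TMX-injected library was the higher one in both joints. Nr1d2 rose in the hip with a log2 ratio of 1.12 (1.05 to 1.20), which was 0.86 with upper quartile scaling and 0.21 with the length-GC correction. Its knee log2 ratio was 0.45 (0.37 to 0.54).

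The Period genes, whose proteins close the loop by inhibiting BMAL1 and CLOCK, were higher in the TMX-injected library of both joints. Per1 was at 60.8 and 183.9 CPM in the hip control and TMX-injected libraries and at 28.5 and 43.3 CPM in the knee. It rose in the hip with a log2 ratio of 1.60 (1.54 to 1.67), while in the knee it had 0.42 (0.30 to 0.53), or 0.17 with the length-GC correction. Per1 is also known to respond to glucocorticoids and to cAMP signalling. Per2 was at 12.5 and 42.2 CPM in the hip libraries and at 6.71 and 20.8 CPM in those of the knee, control first. It was the one member to rise in both joints, with log2 ratios of 1.76 (1.61 to 1.91) in the hip and 1.44 (1.23 to 1.66) in the knee, where 5.93% of all genes lay as high or higher. Per3, the member of the family least needed for rhythm, stood at 18.7 and 48.6 CPM in the hip libraries and 18.9 and 32.8 CPM in the knee libraries. The controls of the joints were alike in Per3, with overlapping counting intervals. It rose in the hip with a log2 ratio of 1.38 (1.26 to 1.51), and its knee ratio was 0.61 (0.47 to 0.75), or 0.38 with the length-GC correction.

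Neither Cryptochrome gene passed the rule for a call. Cry1 had 14.3 and 20.6 CPM in the hip control and TMX-injected libraries and 16.3 and 23.4 CPM in the knee, with log2 ratios of 0.53 (0.37 to 0.69) and 0.33 (0.18 to 0.49). Ratios as high or higher were found for 32.4% of all hip and 31.1% of all knee genes. Cry2 was at 53.3 and 99.8 CPM in the hip libraries and 13.1 and 28.7 CPM in the knee libraries, with log2 ratios of 0.91 (0.83 to 0.99) and 0.95 (0.79 to 1.11). These were close to the size required, and Cry2 passed it at 1.30 in the hip with the length-GC correction and at 1.13 in the knee with scaling by library size alone.

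**Figure D2:**
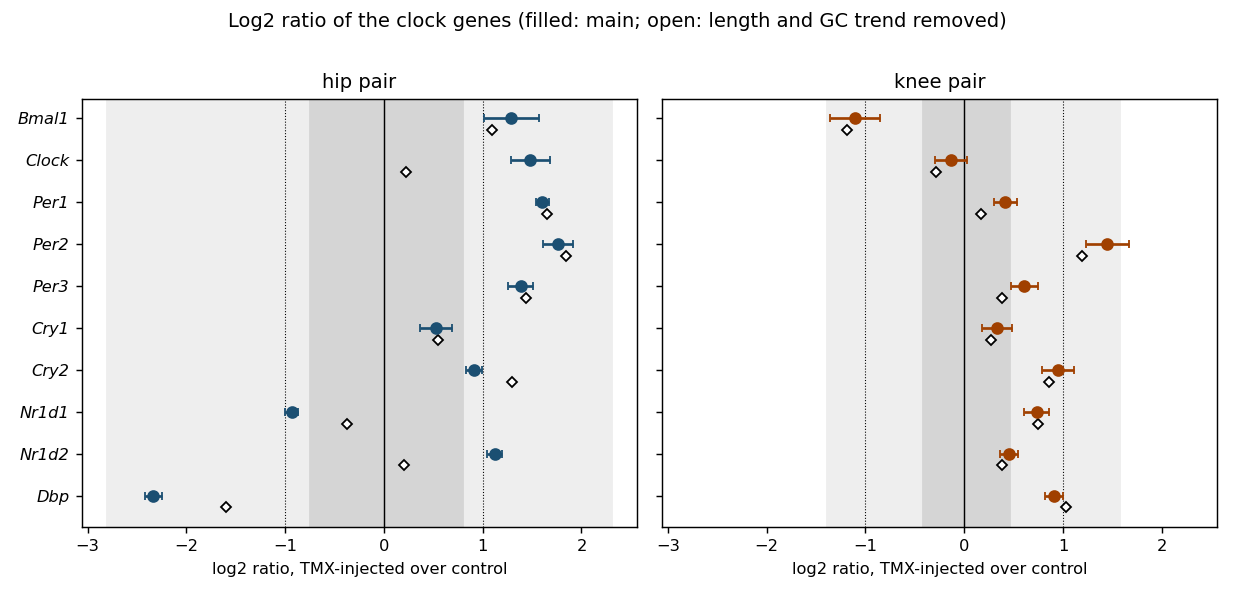
Log2 ratio of each clock gene, TMX-injected over control, for the hip (left) and knee pair (right). Filled circles with bars are the main value and its 95% counting interval, open diamonds the value with the length-GC correction, dark and light grey the central 50% and 90% of all genes tested, and dotted lines the size of 1 required for a call. Dbp at -2.33 and Per2 at 1.76 are the ends of the hip panel, Bmal1 at -1.10 and Per2 at 1.44 those of the knee panel.

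Between the joints, 4 of the 10 members had log2 ratios of opposite sign, namely Bmal1, Clock, Nr1d1 and Dbp. For Clock the knee interval included 0 and its sign turned with scaling by library size alone. The largest distance between the joints was that of Dbp, with a hip minus knee difference of -3.24 on the log2 scale, followed by Bmal1 with 2.39. Cry2 lay at the other end, with a difference of -0.03. No library is shared by the pairs, but mice, age, Cre line and the labelled control treatment differ between them. The difference between joints was not tested.

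Ratios of raw counts between clock genes of the same library do not depend on scaling. There were 43.6 counts of Dbp per count of Bmal1 in the hip control (37.2 to 51.3) and 3.53 in the hip TMX-injected library (3.13 to 3.99). In the knee the order was reversed, with 3.84 in the control (3.42 to 4.33) and 15.5 in the TMX-injected library (13.5 to 17.9). By this measure the hip control and the knee TMX-injected library were both high, and the hip TMX-injected library and the knee control lay close together with overlapping intervals. Nr1d1 per Bmal1 gave the same order within the pairs, 36.6 and 7.81 for the hip, then 2.21 and 7.89 for the knee, control first. Per2 per Bmal1 was 3.03 and 4.20 for the hip, then 0.637 and 3.74 for the knee, so the knee control stood apart as the one library with fewer Per2 than Bmal1 counts. Dbp per Per2 was 14.4 in the hip control, 0.841 in its partner, 6.03 in the knee control and 4.15 in the knee TMX-injected library, and only the hip TMX-injected library had fewer Dbp than Per2 counts. For the REV-ERB genes there were 2.75 counts of Nr1d1 per count of Nr1d2 in the hip control and 0.661 in its partner. In the knee there were 0.486 and 0.590, so Nr1d1 outnumbered Nr1d2 in the hip control alone. These count ratios carry no length-GC correction. With it, the hip log2 ratios of Nr1d1 and Nr1d2 lay closer together, at -0.37 and 0.21 (main -0.93 and 1.12). Those of Dbp and Bmal1 did so too, at -1.60 and 1.09 (main -2.33 and 1.29). The exon overlap with Thra may bear on every Nr1d1 count here.

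**Figure D3:**
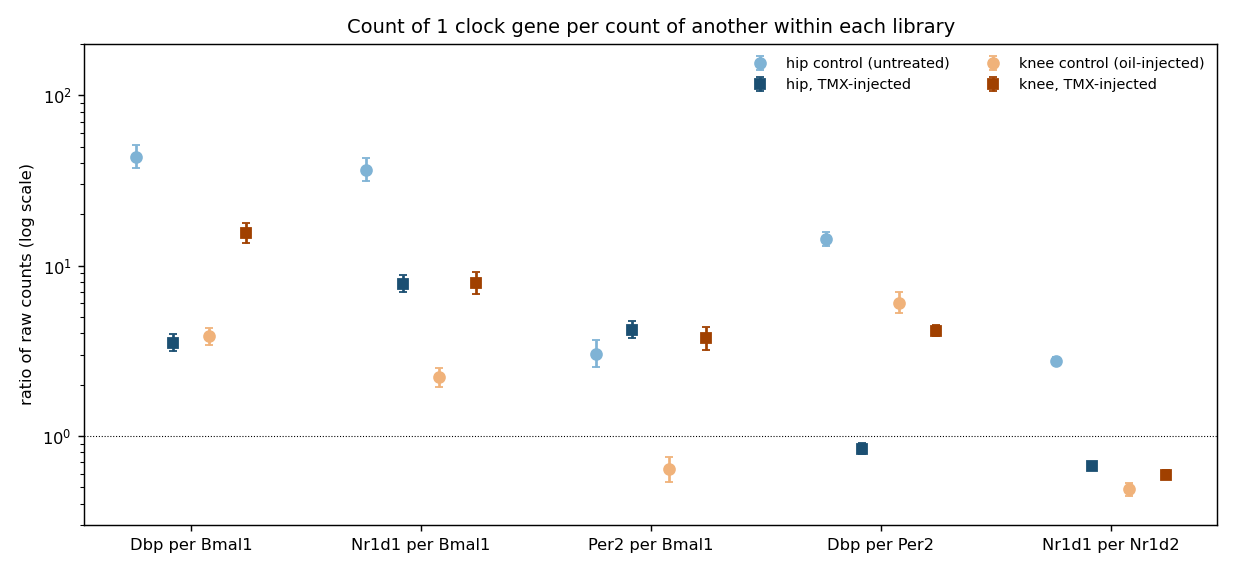
Raw counts of 1 clock gene per count of another within each library, on a log axis, with 95% counting intervals as bars. Circles are controls and squares TMX-injected libraries. For Dbp per Bmal1 the hip falls from 43.6 in the control to 3.53, and the knee goes from 3.84 in the control to 15.5.

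As a summary of the loop, the mean log2 ratio of 6 genes transcribed through E-boxes (Dbp, Nr1d1, Nr1d2, Per1, Per2 and Per3) was set against that of the 2 activators. In the hip the means were 0.43 and 1.39, a difference of -0.95 (-1.13 to -0.78). In the knee they were 0.76 and -0.62, a difference of 1.38 (1.22 to 1.54). The sign was thus opposite in the joints, but in the hip the difference came to -0.13 with the length-GC correction. The hip outputs were not of one direction, since the Period genes and Nr1d2 rose while Dbp fell.

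Levels can be compared between genes per length of annotated exons, as CPM per kb over the union of all exons of a gene. Dbp led in the hip control (51.9 CPM per kb), the knee control (11.7) and the knee TMX-injected library (24.9), with Nr1d1 next at 46.6, 7.17 and 13.6 CPM per kb. In the hip TMX-injected library Dbp was the fifth with 10.2 CPM per kb, behind Nr1d1 (24.2), Per1 (24.0), Nr1d2 (13.1) and Cry2 (11.6), of which Nr1d1 and Per1 did not differ beyond their counting intervals. On this scale Bmal1 was the lowest, between 0.357 and 0.910 CPM per kb, and Clock next lowest, between 0.437 and 1.21 CPM per kb. That order depended on the length used. Per kb of the longest transcript, a choice made after seeing the data, Bmal1 and Clock overlapped in both hip libraries, Per2 was lowest in the knee control (1.06, beside 1.75 for Clock and 2.26 for Bmal1), and Bmal1 was lowest in the knee TMX-injected library alone (1.19). Dbp kept its place in every library, while Nr1d1 and Nr1d2 overlapped in the knee control. Over the union of exons, Bmal1 and Clock overlapped in the controls of both joints and not in the TMX-injected libraries. Other neighbours with overlapping intervals were Cry2 and Nr1d2, and Per2 and Per3, in the hip control. In the hip TMX-injected library Per3 and Cry1 overlapped. The knee control had such overlaps for Per1 with Cry1, Per3 with Cry2 and Per2 with Clock, and the knee TMX-injected library for Cry2 with Per2 and Per2 with Per3.

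Of 26 other clock genes, 7 rose and 2 fell in the hip pair, where 19.6% of all genes rose and 16.9% fell. Their median log2 ratio there was 0.21 (-0.053 with upper quartile scaling). In the knee 2 of the 25 tested rose and 0 fell, where 8.96% of all genes rose and 6.92% fell, and the median was 0.14. In the hip Rora, a receptor that activates Bmal1 through the element shared with REV-ERB, rose from 892 to 4903 counts, a log2 ratio of 2.62 (2.52 to 2.73), or 1.36 with the length-GC correction. Rorb, named after its values were seen, fell in the hip from 43 to 12 counts. In the hip Nfil3, the repressor that competes with DBP at D-boxes, rose with a log2 ratio of 1.21 (1.08 to 1.35), opposite in sign to Dbp, and had 0.95, under the size for a call, with upper quartile scaling. Tef and Hlf, relatives of Dbp, were not called in the hip. Tef had 10099 counts in the hip control and 10195 in its partner, a log2 ratio of 0.18, so that there were 1.46 counts of Tef per count of Dbp in the control and 8.30 in the other. Hlf had -0.46 (-0.65 to -0.28) in the hip, or -0.99 with the length-GC correction. Whether Tef or Hlf differed from Dbp was not tested. In the knee Hlf rose with a log2 ratio of 1.61 (1.40 to 1.83), Tef had 0.96 (1.15 with scaling by library size alone) and Nfil3 -0.08, while Tef per Dbp was 1.54 and 1.60.

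Among the genes that set the stability of PER and CRY, Gsk3b, a kinase, rose in the hip with a log2 ratio of 1.41 (1.31 to 1.5033), which was 0.72 and no longer called with the length-GC correction. Btrc and Fbxw11 had -0.60 and 0.30, and Btrc met the rule for a fall at -1.57 with that correction. None of the 7 genes of that group met the rule in the knee. Of the 5 other repressors none met it in either joint. In the hip Timeless had 0.83 and Cipc 0.60, while Bhlhe40 had -0.65 and Bhlhe41 -0.50, and Timeless met the rule for a rise at 1.15 with the length-GC correction. In the knee Timeless had 0.21, Bhlhe40 0.14 (-0.016 with the length-GC correction) and Bhlhe41 -0.32. Of 6 clock-controlled outputs, Nampt, the enzyme of NAD salvage, rose in the hip with 1.25, the tetraspanin gene Tspan4 fell with -1.40, and Por and Usp2 had -0.85 and 0.24. Both calls were lost with the length-GC correction, at 0.18 for Nampt and -0.74 for Tspan4. With upper quartile scaling Nampt was not called either, at 0.99, and Por was called at -1.11. In the knee those 6 genes ranged from -0.11 to 0.45. The activator paralogues Npas2 and Bmal2, named after their values were seen, rose in the hip from 18 to 38 and from 13 to 64 counts, with wide intervals, and Npas2 was not called with upper quartile scaling (0.96).

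Signals that can reset peripheral clocks were read from 3 further lists. Their calls, and those of the muscle and chondrocyte genes below, stand beside 19.6% of all hip genes rising and 16.9% falling. For all knee genes the shares were 8.96% and 6.92%. All 10 glucocorticoid-responsive genes had positive log2 ratios in the hip, where 8 rose and 0 fell, with a median of 2.13. Fkbp5, a co-chaperone of the glucocorticoid receptor, went from 1247 to 11702 counts, a log2 ratio of 3.39 (3.31 to 3.48). Ddit4, an inhibitor of mTORC1, rose with 4.01, and the metallothionein genes Mt2 and Mt1 with 3.51 and 2.92, Mt2 from only 9 counts. These stand beside the hip rise of Per1, itself a glucocorticoid target, and their part in it was not tested. In the knee 0 of the 10 rose and 3 fell, Mt2 with -1.88, Mt1 with -1.66 and the cell cycle inhibitor gene Cdkn1a with -1.01 (-0.82 and not called with scaling by library size alone), and the median was -0.05 (0.14 with scaling by library size alone).

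Of 8 temperature-responsive genes, 3 rose and 0 fell in the hip, with a median of 0.15 (-0.10 with upper quartile scaling). They were the cold-inducible RNA-binding protein genes Rbm3 (1.92) and Cirbp (1.29) and the chaperone gene Hsp90aa1 (1.02), while Hsph1 had -0.35. Hsp90aa1 was not called with upper quartile scaling (0.76) or the length-GC correction (0.85), and Rbm3 had 1.12 with that correction. In the knee all 8 had negative ratios, 2 fell and the median was -0.45. Those that fell were the heat shock genes Hspa1b with -1.26 and Hsph1 with -1.06, the latter not called with scaling by library size alone (-0.88). Hspa1b shares most of its sequence with Hspa1a, which had -0.53, so the split of reads between them is uncertain. Of 9 immediate early genes, 3 rose in the hip, Fosb with 3.01, Fos with 1.63 and Egr1 with 1.20, and 1 in the knee, the phosphatase gene Dusp1 with 1.17, and none fell. With upper quartile scaling Egr1 had 0.94 and was not called. With the length-GC correction Dusp1 (1.02, from 0.40) and Junb (1.53, from 0.71), the latter named after its values were seen, also met the rule for a rise in the hip. The list medians were 0.71 in the hip and 0.07 in the knee, where the value was -0.014 with the length-GC correction and -0.00098 with upper quartile scaling.

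Because muscle transcripts were abundant, 6 muscle genes under clock control were also followed. Fbxo32, a ubiquitin ligase of muscle atrophy, and Pdk4, a kinase that restrains glucose oxidation, rose in the hip with log2 ratios of 2.31 and 1.68, while Ucp3 had -0.68 and Myod1 -0.42 (0.31 with the length-GC correction), and the median was 0.09 (-0.17 with upper quartile scaling). In the knee none passed the rule, the ratios ran from -0.32 to 0.89 and the median was 0.60 (0.38 with the length-GC correction). Myod1, at 0.89, met the rule for a rise with scaling by library size alone (1.07) and with the length-GC correction (1.01). Of the 26 muscle markers themselves, 3 rose and 4 fell in the hip, from -2.004 for Mb to 2.97 for Ttn, so the like summed shares of 23.7% and 23.3% covered genes that moved both ways. In the knee pair 14 of them rose and 0 fell, the summed share going from 1.74% to 3.67%, beside positive ratios of 8 clock genes. Of the 16 chondrocyte markers 12 fell in the knee, and in the hip 6 of the 15 tested fell and 1 rose. The part of these markers in the ratios of the clock genes was not tested in either joint.

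**Figure D4:**
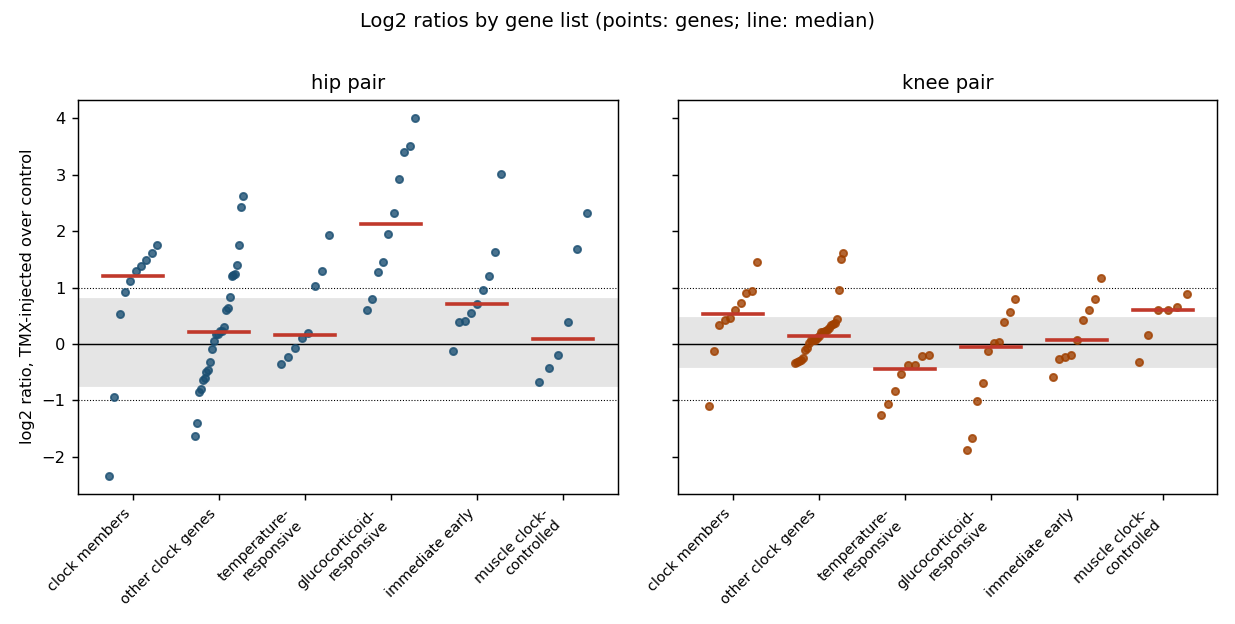
Log2 ratio, TMX-injected over control, of each gene (points) of the clock members and 5 other lists in the hip (left) and knee pair (right), with the list median as a red line, the central 50% of all genes in grey and the size of 1 required for a call as dotted lines. The glucocorticoid-responsive genes lie highest in the hip with a median of 2.13 and near 0 in the knee with a median of -0.05.

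Likeness was read among 7851 genes with at least 200 counts in each library, a minimum that Bmal1 itself did not meet in the hip control. The genes nearest to Bmal1 over the hip and knee log2 ratios were Cdkn1a (1.28 and -1.01) and Lama5 (1.21 and -1.02). There were 3 genes as far out as Bmal1 in both joints. Nearest to Dbp were Col3a1 (-2.25 and 0.79), Fndc5 (-2.16 and 0.92) and Fzd9 (-2.48 and 1.06), and again 3 genes lay as far out in both joints. The likeness rests on 2 ratios and 4 libraries and is a description only.

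Exons on the opposite strand also touch other members. Sphk2 covers 15.5% of the exon bases of Dbp and had log2 ratios of 0.05 (-0.09 to 0.19) in the hip, or -0.06 with the length-GC correction, and -0.35 (-0.44 to -0.25) in the knee. Tmem165 covers 11.9% of those of Clock and had -0.34 in the hip and 0.20 in the knee. For the remaining members the overlaps were under 5%, and Per2, Cry1 and Nr1d2 had none. In the annotation on GRCm39, Dbp (ENSMUSG00000059824) lies on chromosome 7 from 45354512 to 45359627, Bmal1 (ENSMUSG00000055116) on chromosome 7 from 112806152 to 112914735, Per2 (ENSMUSG00000055866) on chromosome 1 from 91343700 to 91387069 and Nr1d1 (ENSMUSG00000020889) on chromosome 11 from 98658752 to 98666188.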

How the data were processed

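Per the study's methods, total RNA from hip or knee cartilage was made into poly-A libraries with the NEBNext Ultra kit and aligned to GRCm39 by STAR; the submitters' processing notes name mm10 and STAR 2.0 instead. The labels' extraction protocol names osteoblasts. The authors deposited raw, unnormalized read counts, 1 value per Ensembl identifier and library. Hip counts end in HTSeq summary lines, which held 25.8% and 24.6% of the reads listed and were left out. The counter of the knee, the annotation, strand and any pooling of mice are not given in the sources used here.

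Identifiers were matched to GENCODE mouse release 39 (91.8% of hip and 92.6% of knee identifiers). Within each pair counts were scaled by edgeR 4.0.16 (TMM) in R 4.3.3, 0.5 was added, and log2 ratios were taken in Python 3.11.15 (numpy 2.4.6, pandas 2.3.3, scipy 1.17.1, matplotlib 3.10.9). With 1 library per group nothing was tested across samples. Alternatives were other scalings (DESeq2 1.42.0 size factors among them), 5 counts added, other filters and sizes for a call, and subtraction of the median ratio over 20 bins of transcript length, then of GC content, in 2 rounds. Per list and pair at most 4 genes were named, by the largest ratio with at least 100 counts over the pair; exceptions are stated, and a few genes that the rule picks are not reported here. The members and lists were chosen with earlier results of these data known. The ratio, interval and call steps were tried on simulated Poisson counts, and the trend step on an artificial trend. Neither trial included TMM scaling or differences between animals.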

Additional observations from a re-analysis of the deposited data

Results flagged for a closer look

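Of the clock genes, 3 had log2 ratios of opposite sign in the joints with counting intervals that excluded 0 in both. Bmal1 had 1.29 in the hip and -1.10 in the knee, Nr1d1 had -0.93 and 0.73, and Dbp had -2.33 and 0.91. Each value compares 1 library with 1 other, and the difference between the joints was not tested.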

How the results depend on the processing

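Counts of calls were recomputed under 9 alternatives, and each ratio, median and difference under 8 of these. The count filters cannot move the ratio of a single member, so its values under them stayed by construction. The scalings cannot move the difference of outputs and activators. Of 80 values of single clock genes in the hip, 66 stayed within their counting interval, 14 moved beyond it and 0 of those called changed sign, and of 80 in the knee 68 stayed and 12 moved. Every member kept its direction under every alternative except Clock in the knee. Upper quartile scaling shifted the median of all hip genes by -0.26, and scaling by library size alone that of the knee by 0.19. Hip genes then split into 2945 rises and 4469 falls (main 3894 and 3359), and knee genes into 2603 and 1049 (main 1894 and 1462). Requiring at least 10 counts in each library gave 2992 rises and 1540 falls in the hip, and removing the length and GC trend gave 2700 and 3095 for hip and 1973 and 1081 for knee genes.

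In the hip, 5 clock genes rose and 2 fell with upper quartile scaling, and 8 rose and 2 fell with a required size of 0.5. Without the length and GC trend 5 rose and 1 fell (main 6 and 1). Clock (0.22) and Nr1d2 (0.21) were then no longer called, and Cry2 (1.30) was. With upper quartile scaling the hip medians were 0.95 for the clock members, -0.053 for the other clock genes, -0.10 for temperature-responsive, 1.87 for glucocorticoid-responsive, 0.45 for immediate early and -0.17 for muscle clock-controlled genes. Without the length and GC trend they were 0.82 for the members, 0.69 for temperature-responsive, 1.94 for glucocorticoid-responsive, 1.02 for immediate early and 0.39 for muscle clock-controlled genes, and the hip difference of outputs and activators was -0.13. With at least 10 counts in each library the glucocorticoid-responsive median was 1.94. In the knee, scaling by library size alone gave 3 rises and 0 falls among the members and medians of 0.72 for the members, 0.33 for the other clock genes, -0.26 for temperature-responsive, 0.14 for glucocorticoid-responsive, 0.26 for immediate early and 0.79 for muscle clock-controlled genes. A size of 0.5 gave 5 rises. Without the trend there were 2 rises, and medians of 0.38 for the members, -0.14 for glucocorticoid-responsive and 0.38 for muscle clock-controlled genes. A smaller required size calls more genes by construction; for the other shifts the cause was not tested. The order of levels per kb was also read with the longest transcript as length, an alternative added after seeing the data. No paired analysis was possible because each group holds 1 library. Depth limits Bmal1 most, with 159 counts in the hip control.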
